A study of Mus musculus with 24 samples.

Results

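Collagens, laminins and the genes around them that build or bind the vascular basement membrane were described in brain microvessels after stroke. The members were the protein-coding genes whose symbols begin with Col, a number, a and a number (collagen chains) or with Lama, Lamb or Lamc and a number (laminin chains), together with Nid1, Nid2, Hspg2, Agrn, Dag1, Fn1, Sparc, Lox and Loxl1 to Loxl4. Of 62 such genes, the 60 with a mean above 5 normalized read counts over all libraries were members, out of 17270 genes in the table and 15982 genes tested. Col2a1 (mean 2.58) and Col10a1 (mean 3.63) stayed below this limit, and Col20a1, Col17a1 and Col11a1 lay just above it with means of 12.3, 16.0 and 19.0. Col4a3bp, which encodes a ceramide transfer protein, matched the names by its letters alone, so the counts that follow cover the other 59 genes. By role these were 6 type IV collagens, 2 multiplexins, 10 laminins and 4 linkers (Nid1, Nid2, Hspg2, Agrn), which make up 22 basement membrane genes, then 9 fibrillar collagens, 7 fibril-associated (FACIT) collagens, 9 network and beaded collagens, 4 transmembrane collagens, 5 lysyl oxidases and the 3 genes Dag1, Fn1 and Sparc.

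The study compared male C57BL/6J mice, aged 10 to 12 weeks and carrying no altered allele that the labels name, after transient occlusion of the middle cerebral artery (tMCAO, called stroke here) for 60 minutes or after sham surgery. Microvessels were isolated from the ipsilateral and the contralateral hemisphere at 24 h or 7 days. The data used here hold 8 groups of 3 libraries. According to the paper, more samples were made, and some were set aside as outliers before further analysis. The spread within groups may therefore be smaller than among all samples made, which bears on every SE, p-value and statement of overlap. Each library held vessels pooled from 3 hemispheres, so the spread between libraries is a spread between pools of mice and not between single mice. The post-stroke care protocol adapted food and fluids to the condition of each mouse, so the care given could differ between the surgery groups. The values are reads per gene that the authors divided by a size factor per library, called normalized counts here, and their totals were 15924780 to 18787932 per library.

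The basement membrane is the sheet of matrix on which endothelial cells sit and in which pericytes are embedded. Its backbone consists of a laminin network and a type IV collagen network, which nidogens, perlecan (Hspg2) and agrin (Agrn) tie together and to the cells. Around larger vessels, fibroblasts add fibrillar collagens such as types I and III, which FACIT collagens decorate and lysyl oxidases cross-link. Nearly all vascular basement membranes contain the type IV chains encoded by Col4a1 and Col4a2, while those of Col4a3 to Col4a6 are known from a few specialised membranes such as those of the kidney.

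The 6 type IV collagen genes lie in 3 pairs that are transcribed head to head from neighbouring starts, and the chains of a pair changed in the same direction at 24 h. This arrangement was looked up after the values had been seen. Their starts are therefore shown, from RefSeq on GRCm38.p6, the mm10 assembly, on the strand of each gene and from 250 bases before to 50 bases after the annotated start. Promoter sequences were found for 39 of the 60 members, among them 5 of the type IV genes. Capitals mark the GC box (GGGCGG), the CCAAT box (CCAAT) and the TATA box (TATAAA) wherever they occurred on either strand. No matches of different motifs overlapped in the sequences shown.
Col4a1: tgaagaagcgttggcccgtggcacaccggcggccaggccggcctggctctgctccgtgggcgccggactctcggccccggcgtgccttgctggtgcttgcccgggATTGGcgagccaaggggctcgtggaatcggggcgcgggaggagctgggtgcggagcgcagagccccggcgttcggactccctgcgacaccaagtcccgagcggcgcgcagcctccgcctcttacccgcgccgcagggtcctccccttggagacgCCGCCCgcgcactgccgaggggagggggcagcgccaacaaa
Col4a2: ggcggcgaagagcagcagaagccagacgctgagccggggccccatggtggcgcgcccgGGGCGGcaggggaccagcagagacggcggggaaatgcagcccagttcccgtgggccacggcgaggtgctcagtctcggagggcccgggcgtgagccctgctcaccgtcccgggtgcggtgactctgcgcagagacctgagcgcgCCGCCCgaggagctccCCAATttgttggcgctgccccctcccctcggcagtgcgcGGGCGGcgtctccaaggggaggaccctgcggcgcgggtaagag
Col4a4: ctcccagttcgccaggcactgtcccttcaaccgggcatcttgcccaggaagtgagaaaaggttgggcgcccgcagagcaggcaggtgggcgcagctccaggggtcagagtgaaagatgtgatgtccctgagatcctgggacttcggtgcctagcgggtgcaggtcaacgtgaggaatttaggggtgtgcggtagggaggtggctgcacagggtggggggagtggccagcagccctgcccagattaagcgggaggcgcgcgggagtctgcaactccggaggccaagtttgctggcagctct
Col4a5: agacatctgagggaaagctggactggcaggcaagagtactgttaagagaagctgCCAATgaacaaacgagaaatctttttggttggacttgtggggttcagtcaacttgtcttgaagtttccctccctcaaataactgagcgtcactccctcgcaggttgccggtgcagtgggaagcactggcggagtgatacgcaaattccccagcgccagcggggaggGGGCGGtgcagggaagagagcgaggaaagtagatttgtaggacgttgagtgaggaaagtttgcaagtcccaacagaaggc
Col4a6: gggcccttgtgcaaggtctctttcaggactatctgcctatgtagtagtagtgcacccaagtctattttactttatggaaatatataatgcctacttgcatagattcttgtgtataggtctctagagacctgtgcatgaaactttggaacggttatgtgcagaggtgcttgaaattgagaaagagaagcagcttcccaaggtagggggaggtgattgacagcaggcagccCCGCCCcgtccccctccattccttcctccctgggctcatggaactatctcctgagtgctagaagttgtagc

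The windows were chr8:11312777-11313076 (minus strand) for Col4a1, chr8:11312555-11312854 (plus strand) for Col4a2, chr1:82586800-82587099 (minus) for Col4a4, chrX:141475169-141475468 (plus) for Col4a5 and chrX:141474027-141474326 (minus) for Col4a6. Those of Col4a1 and Col4a2 shared 78 bases, and the single GC box of the Col4a1 window lay in this stretch and is the last one of the Col4a2 window, read on the other strand. By the deposited coordinates the first exons of Col4a1 and Col4a2 overlapped by 22 bases, whereas 126 bases lay between the starts of Col4a3 and Col4a4 and 1308 bases between those of Col4a5 and Col4a6. The deposited start of Col4a5 lay slightly upstream of the RefSeq start on which its window was placed. The Col4a1 and Col4a2 windows had a GC content of 74.0% and 73.7%, against a median of 52.7% over 32851 mouse promoters of this length, and those of Col4a4, Col4a5 and Col4a6 had 63.3%, 52.7% and 48.3%. A GC box was present once in Col4a1, 3 times in Col4a2 and once each in Col4a5 and Col4a6, and a CCAAT box once each in Col4a1, Col4a2 and Col4a5. Among all promoters, 35.7% held a GC box, 37.4% a CCAAT box and 13.6% a TATA box. None of the 5 windows held the TATA box letters, and that of Col4a4 held none of the 3 motifs.

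In sham microvessels the basement membrane genes far exceeded the fibrillar collagens. Per kilobase of exon, the group means in sham ipsilateral vessels at 24 h were highest for Sparc (9466 normalized counts per kb), Fn1 (5099), Col4a1 (4417), Col4a2 (3619) and Lamb2 (2908). The most abundant fibrillar collagen chains were Col1a2 with 331 and Col1a1 with 243 normalized counts per kb, behind Lamc1 (948), Lamc3 (865), Agrn (803), Nid1 (625), Col18a1 (556) and Lama5 (456) and close to Hspg2 (252). Among laminin alpha chains Lama5 was followed by Lama4 (204) and Lama1 (104) on the same scale. The 22 basement membrane genes summed to 117871 to 130053 normalized counts in these libraries and the 9 fibrillar collagens to 5865 to 10231. The vessels carried the 12 of 12 listed endothelial markers, whose sum was 282325 to 408274 normalized counts in the 24 libraries, while the 9 neuronal markers summed to 2181 to 14277.

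Few members were called between the control groups, although more of them had low unadjusted p between the time points and, at 7 days, on the contralateral side of stroke. In limma fits with Benjamini-Hochberg adjustment over all genes tested, calls required an adjusted p under 0.05 and a change of more than 1.5-fold in either direction. No member was called between the hemispheres of sham mice at 24 h (0% of all genes called, 1 member and 2.30% of all genes with an unadjusted p under 0.05) or 7 days (0%, 2 members and 2.25%). In a fit that blocked these comparisons on replicate number, 6 members (5.62% of all genes) and 8 members (6.13%) had an unadjusted p under 0.05 and still none was called. Nor was a member called between stroke and sham in the contralateral hemisphere at 24 h (0%, 3 members and 2.53% of all genes with an unadjusted p under 0.05) or 7 days (0.0313% called). At 7 days, however, 12 of the 59 (20.3%) had an unadjusted p under 0.05 there, against 10.3% of all genes, and 13 did not overlap between groups, all of them lower after stroke, against 9.80% of all genes in either direction. Between 7 days and 24 h after sham surgery, 1 member was called in the ipsilateral hemisphere (0.476% of all genes) and 1 in the contralateral hemisphere (0.332%), and both times it was Col14a1. Of the 59 members, 12 on the ipsilateral and 15 on the contralateral side had an unadjusted p under 0.05 (14.1% and 10.8% of all genes), and 15 and 22 of the 59 did not overlap between the times (22.0% and 17.6% of all genes), of which 11 and 18 were lower at 7 days.

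The comparison of stroke with sham in the ipsilateral hemisphere asked how the vessels on the injured side changed. At 24 h, 7 of the 59 matrix genes were called higher and 14 lower, and 24 (40.7%) had stroke libraries that did not overlap the sham libraries, fewer than the 49.0% of all genes. The classes differed in this, with no overlap for 16 of the 22 basement membrane genes (72.7%) and 3 of the 9 fibrillar collagens (33.3%). Among all genes 10.0% were called higher and 8.23% lower, so the share of higher members was near that background and the share of lower members above it. Without sham library 1 or without stroke library 2, 3 members were called higher, without stroke library 2 only 5 were called lower, and 8 were lower after values were corrected for exon length and GC content. In bulk vessel RNA fewer cells of a type and less RNA per cell cannot be told apart. The higher genes were Col4a1, Col4a2, Col18a1, Lamb1, Hspg2, Sparc and Col5a3. The lower genes included Col4a3 to Col4a6, 3 laminin chains (Lama2, Lama3, Lamc3) and 3 of 4 transmembrane collagens. Of the 22 basement membrane genes 5 were called higher and 7 lower, with a median log2 fold change of -0.20. Of the 9 fibrillar collagens 1 was called higher and 1 lower, with a median of 0.01, and over all genes tested the median was -0.02.

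**Figure D1:**
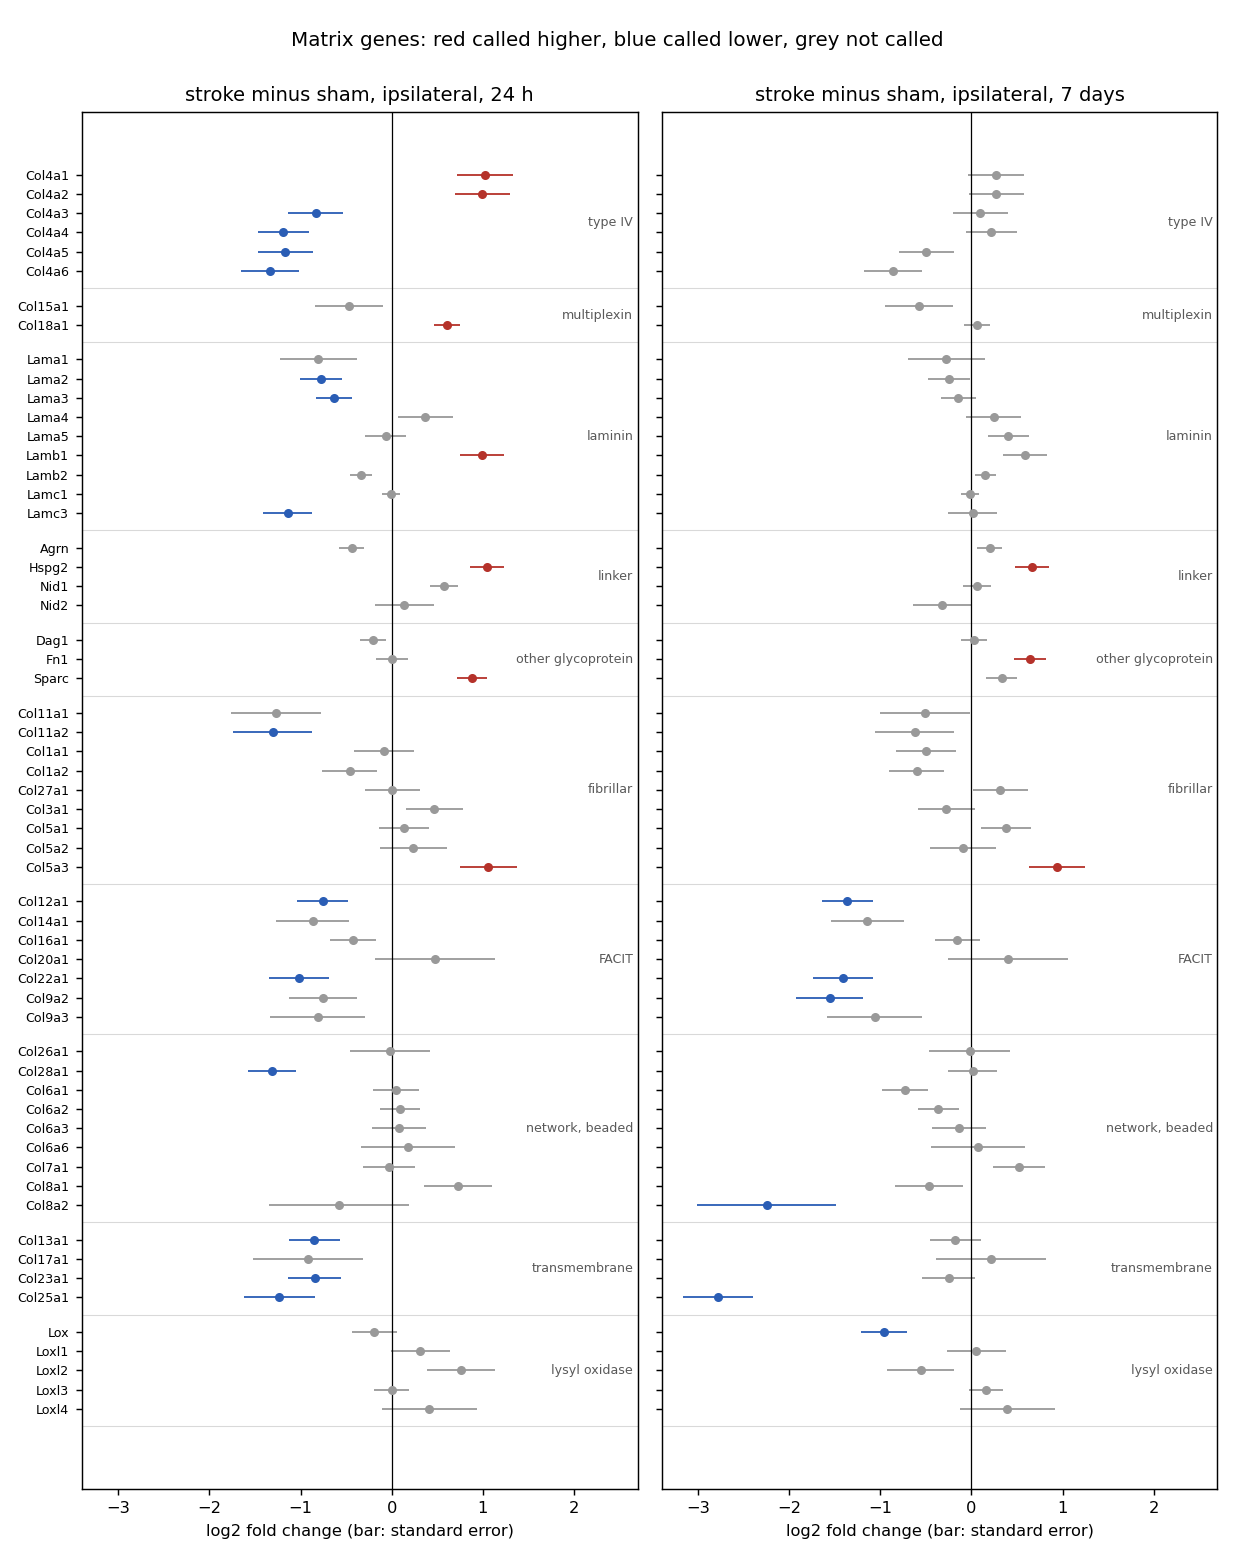
Log2 fold change (x axis, with its standard error as a bar) of stroke against sham in ipsilateral microvessels at 24 h (left) and 7 days (right) for the matrix genes, grouped by role. Red points are genes called higher, blue points genes called lower and grey points genes not called, with 7 red and 14 blue at 24 h and 3 red and 6 blue at 7 days.

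Cell type markers also moved at 24 h. Of the 9 fibroblast markers 4 were called lower (their sum was 5769 to 12673 normalized counts in the stroke libraries and 9021 to 15425 in the sham libraries), of 8 pericyte markers 3 were called lower (57240 to 82136 against 90147 to 114807), of 9 astrocyte markers 7 (9780 to 14177 against 17927 to 23799) and of 9 neuronal markers 6 (2266 to 3075 against 5080 to 5653). All 8 tested markers of neutrophils and monocytes were called higher, with sums of 3321 to 6497 against 347 to 1292. For smooth muscle none of 7 was called (26466 to 67602 against 58845 to 61251), and of 12 endothelial markers 1 was called higher and 2 lower (282325 to 319485 against 309274 to 351290). The median log2 fold change was -0.91 over the fibroblast and -0.40 over the pericyte markers. Not every marker moved as far. Dcn, a fibroblast gene, stood at 4289 normalized counts after stroke and 4691 after sham, and Pdgfrb, a pericyte receptor, at 9515 and 8850. The part of these shifts in the changes of the matrix genes was not tested.

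Type IV collagen chains split into a higher and a lower group. Col4a1 (ENSMUSG00000031502, chr8:11198423-11312826) had 73491, 81875 and 48910 normalized counts in the 3 ipsilateral stroke libraries at 24 h and 30530, 30609 and 37772 in the sham libraries. Col4a2 (ENSMUSG00000031503, chr8:11312805-11449287) had 54985, 55282 and 35549 against 23185, 22108 and 26560. Every stroke library exceeded every sham library for both genes, and stroke library 3 was the lowest of its group in each. The log2 fold changes were 1.02 (SE 0.31, limma adjusted p = 0.0175) for Col4a1 and 0.996 (SE 0.30, limma adjusted p = 0.0178) for Col4a2. Each call was lost without sham library 1 or 2 or without stroke library 1 or 2, with adjusted p up to 0.0788 and 0.0710, and the log2 fold changes kept their sign. Between 24 h and 7 days in the stroke hemisphere both genes fell, by 1.03 (SE 0.31, adjusted p = 0.0245) and 1.11 (SE 0.30, adjusted p = 0.0144) on the log2 scale in limma. For Col4a1 that call was lost without stroke library 1 or 2 at 24 h or library 2 or 3 at 7 days, with adjusted p of 0.0775 to 0.0969, and for Col4a2 without stroke library 1 or 2 at 24 h or library 2 at 7 days (0.0571 to 0.0685).

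The other 4 chains were lower at 24 h. Col4a3 (ENSMUSG00000079465, chr1:82586976-82722059) had 75, 38 and 68 normalized counts after stroke and 102, 137 and 80 after sham, and its partner Col4a4 (ENSMUSG00000067158, chr1:82448423-82586849) had 26, 25 and 32 against 61, 86 and 50. Col4a5 (ENSMUSG00000031274, chrX:141475385-141689234) had 452, 263 and 650 against 791, 1251 and 888, and Col4a6 (ENSMUSG00000031273, chrX:141165403-141474076) had 163, 116 and 282 against 324, 554 and 485. The groups did not overlap for any of these genes, and stroke library 2 was the lowest of its group for all 4. The log2 fold change was -1.34 for Col4a6 (SE 0.32, limma adjusted p = 0.00376) and -1.19 for Col4a4 (SE 0.28, limma adjusted p = 0.00372), both called in every one of 6 fits with 1 library less. Col4a5 fell by 1.17 on the log2 scale (SE 0.30, adjusted p = 0.00713 in limma), a call that was lost without stroke library 2 (adjusted p = 0.0577), and Col4a3 by 0.83 (SE 0.30, adjusted p = 0.0429), which was lost without sham library 1 or 2 or stroke library 2 (adjusted p = 0.0927, 0.170 and 0.231). Stroke library 2 also had the lowest sums of fibroblast, pericyte and smooth muscle markers of its group, and the part of this was not tested.

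**Figure D2:**
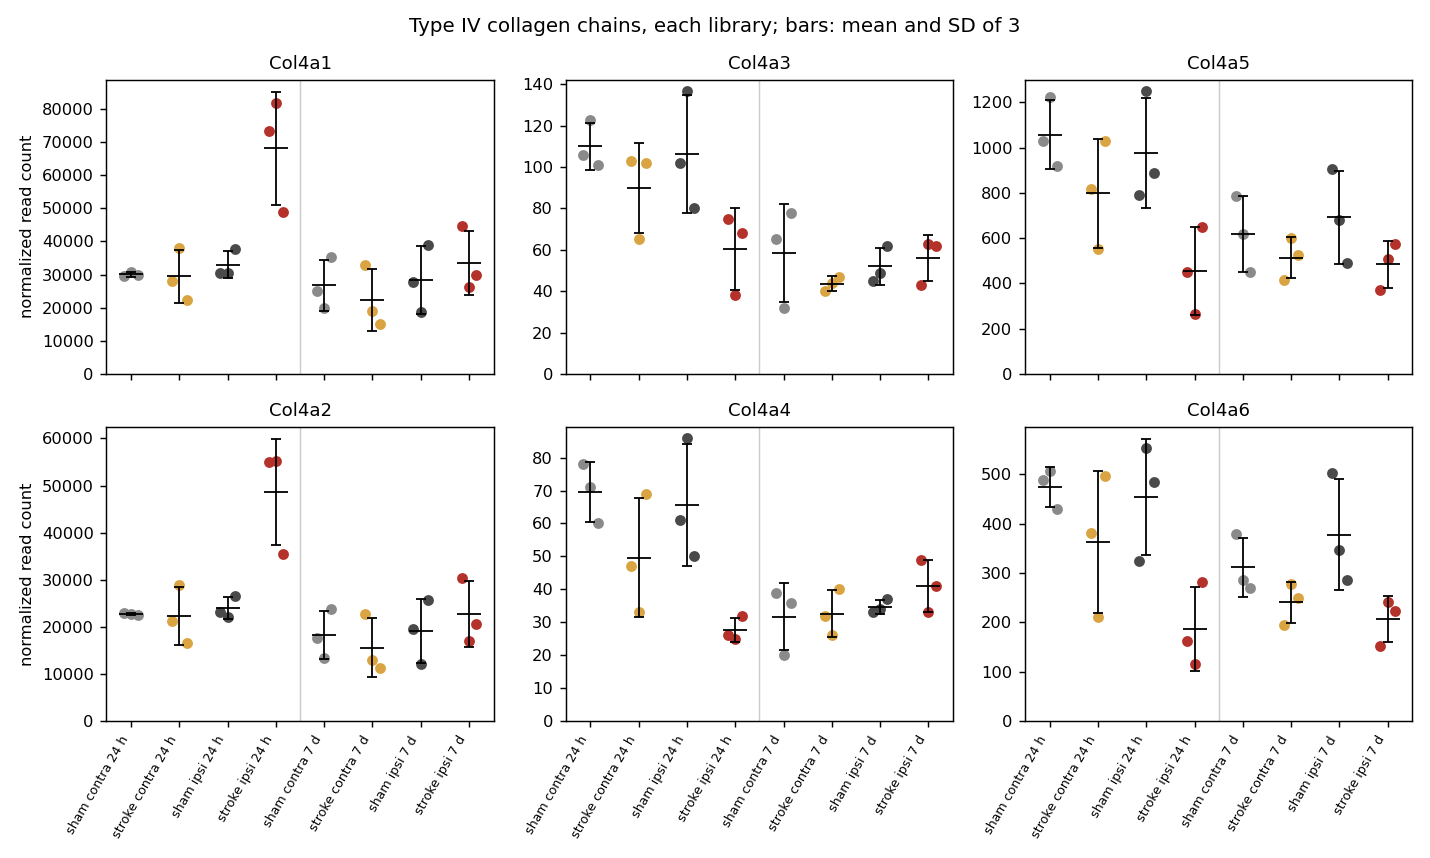
Normalized read counts (y axis) of the 6 type IV collagen genes in each library (points) of the 8 groups (x axis), with head-to-head partners one above the other and bars for the mean and SD of 3 libraries. In the ipsilateral stroke libraries at 24 h Col4a1 lay between 48910 and 81875, above all sham ipsilateral libraries, whereas Col4a6 lay between 116 and 282, below all of them.

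Within a pair the genes kept to a narrow ratio where counts were high. The ratio of Col4a1 to Col4a2 lay between 1.29 and 1.54 in the 24 libraries, with a median of 1.42, while Col4a1 itself ranged from 15153 to 81875. The ratio of Col4a5 to Col4a6 lay between 1.68 and 2.77. For the rarer Col4a3 and Col4a4, with 20 to 137 normalized counts per library, it spread from 0.878 to 2.89. Col4a1 and Col4a2 made up 97.3% of the summed type IV level per kb in sham ipsilateral vessels at 24 h and 99.4% after stroke, and 97.7% and 98.7% at 7 days. The fall of the other chains thus concerned a small share of type IV transcripts. At 7 days no type IV gene was called between stroke and sham. An unadjusted p under 0.05 in limma was found for 1 of 6, against 29.3% of all genes. Log2 fold changes were 0.27 for Col4a1 (SE 0.31) and Col4a2 (SE 0.30), 0.10 for Col4a3, 0.22 for Col4a4, -0.49 for Col4a5 and -0.86 for Col4a6 (SE 0.32, limma adjusted p = 0.0680).

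Of the 2 multiplexins, collagens with glycosaminoglycan chains that lie in vascular basement membranes, Col18a1 was higher at 24 h and Col15a1 was not called. Col18a1 had 5548, 6171 and 6128 normalized counts after stroke, 3460, 3990 and 4268 in sham ipsilateral vessels and 2590, 2377 and 2855 in the contralateral stroke vessels. All 3 stroke ipsilateral libraries stood above the other 21 libraries of the study. Its log2 fold change against sham was 0.61 (SE 0.14, limma adjusted p = 0.00346), close to the limit of 1.5-fold, below which it dropped without sham library 1 or stroke library 2. Col15a1 had a log2 fold change of -0.47 (SE 0.37, limma adjusted p = 0.352).

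Among the laminins, Lamb1 rose and Lamc3, Lama2 and Lama3 fell at 24 h. Lamb1 (ENSMUSG00000002900, chr12:31265234-31329644), a beta chain, had 1532, 1378 and 1482 normalized counts after stroke and 487, 988 and 826 after sham, with no overlap and little spread among the stroke libraries. Its log2 fold change was 0.99 (SE 0.25, limma adjusted p = 0.00522), a call that held in all 6 fits without 1 library. At 7 days it had 1342, 937 and 1166 against 1036, 595 and 701, which overlapped, with a log2 fold change of 0.59 (SE 0.25, limma adjusted p = 0.112). The difference between the time points was not called (interaction log2 -0.40, SE 0.35, limma adjusted p = 0.490).

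Lamc3 (ENSMUSG00000026840, chr2:31887344-31946539), a gamma chain, had 2763, 1413 and 3488 normalized counts after stroke and 5239, 5423 and 5137 after sham at 24 h, a log2 fold change of -1.14 (SE 0.27, limma adjusted p = 0.00374) that was called in all 6 fits without 1 library. Stroke library 2 was the lowest here too. At 7 days it had 2372, 2652 and 4342 after stroke and 3060, 3131 and 2766 after sham, so the groups overlapped at that time. The sham level was lower than at 24 h (log2 difference -0.82, not called). The interaction (log2 1.15) was not called. It was with median centring, the replicate number as a block or the length and GC correction (limma adjusted p = 0.0455, 0.0423 and 0.0454). It was also called without stroke library 3 at 24 h (0.0181) or stroke library 1 at 7 days (0.0376). Lama2 had 867, 570 and 1088 against 1175, 1667 and 1388 at 24 h (log2 fold change -0.78, SE 0.23, limma adjusted p = 0.0156), a call lost without sham library 2 (adjusted p = 0.0704) or stroke library 2 (adjusted p = 0.112). Lama3 had 534, 515 and 610 against 969, 705 and 912 (log2 fold change -0.63, SE 0.20, limma adjusted p = 0.0209), a call that was lost in 4 of 6 such fits, with adjusted p up to 0.0918.

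The chains Lamb2, Lamc1, Lama4 and Lama5 were not called at 24 h. Lamb2 had 13971, 12594 and 15513 normalized counts after stroke and 17917, 17082 and 18062 after sham, with no overlap and a log2 fold change of -0.34 (SE 0.12, limma adjusted p = 0.0373), smaller than the limit on the fold change. Lamc1, the gamma chain shared by most vascular laminins, had 8134, 7206 and 8090 against 7081, 8374 and 8071, and its groups overlapped fully (95% interval of the log2 fold change -0.21 to 0.20). Lama4 and Lama5, the alpha chains made by endothelial cells, had log2 fold changes of 0.37 (SE 0.30, limma adjusted p = 0.372) and -0.07 (SE 0.22, limma adjusted p = 0.845), and Lama4 ranged from 2644 to 3436 after stroke and from 1712 to 2955 after sham. Lama1 had a log2 fold change of -0.80 without passing the test (SE 0.42, limma adjusted p = 0.155). At 7 days no laminin was called in limma, and 1 of 10 had an unadjusted p under 0.05, against 29.3% of all genes. With the correction for length and GC content, Lama5 and Lamb1 were called higher at 7 days (limma adjusted p = 0.00930 and 0.0284). Lamb1 was also called without sham library 1 at 7 days (limma adjusted p = 0.0403).

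The linkers differed from each other. Perlecan (Hspg2, ENSMUSG00000028763, chr4:137468769-137570630), the heparan sulphate proteoglycan of the basement membrane, had 8172, 9763 and 5131 normalized counts in the stroke libraries and 3957, 3230 and 3619 in the sham libraries at 24 h. At 7 days it had 6356, 4791 and 5589 against 3394, 3572 and 3531, and at neither time did the groups overlap. The log2 fold changes were 1.05 (SE 0.19, limma adjusted p = 3.7e-04) and 0.66 (SE 0.19, limma adjusted p = 0.0172). The call at 24 h held in all 6 fits without 1 library, whereas that at 7 days was lost without sham library 1 (adjusted p = 0.0524) or stroke library 1 (adjusted p = 0.0909). The interaction was not called (log2 -0.38, SE 0.26, limma adjusted p = 0.371).

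Agrin (Agrn, ENSMUSG00000041936, chr4:156165290-156197488), another heparan sulphate proteoglycan, had 4662, 5789 and 6141 normalized counts after stroke and 7809, 7105 and 7460 after sham at 24 h, and 9264, 9723 and 10551 against 7968, 9274 and 8457 at 7 days. The stroke libraries were thus all below the sham libraries at 24 h and ranged slightly higher at 7 days, with overlap. Neither difference was called (log2 fold change -0.44, SE 0.14, limma adjusted p = 0.0201 at 24 h and 0.20, SE 0.14, limma adjusted p = 0.356 at 7 days), but the difference between them was, with an interaction of 0.64 (SE 0.19, limma adjusted p = 0.0390). This call was made in 4 of 12 fits with 1 library less, and the adjusted p reached 0.118 without stroke library 1 at 24 h. Within the stroke hemisphere Agrn rose from 24 h to 7 days by 0.84 on the log2 scale (SE 0.14, limma adjusted p = 3.5e-04) in all 6 such fits.

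Nidogen 1 (Nid1) had 6993, 6877 and 5540 normalized counts after stroke and 3822, 5004 and 4189 after sham at 24 h, with no overlap. Its log2 fold change of 0.58 (SE 0.15, limma adjusted p = 0.00813) was just under the limit, so that it was not called. It fell by 0.98 (SE 0.15, adjusted p = 2.4e-04 in limma) from 24 h to 7 days after stroke, and all 6 fits without 1 library called it. In sham ipsilateral vessels Nid1 was lower at 7 days too (log2 difference -0.46, not called). Its interaction (log2 -0.52) was not called, though it was without stroke library 1 at 7 days (limma adjusted p = 0.0406). Nid2 did not pass the test at 24 h (log2 fold change 0.14, SE 0.32, limma adjusted p = 0.770) or 7 days (-0.32, SE 0.32, 0.564).

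Sparc, a collagen-binding glycoprotein, had the highest level per kb of exon among the members. It had 70817, 70619 and 56985 normalized counts after stroke and 31944, 39280 and 36344 after sham at 24 h, with a log2 fold change of 0.88 (SE 0.17, limma adjusted p = 7.0e-04) that was called in all 6 fits without 1 library. At 7 days it had 43781, 34024 and 34783 against 28710, 25020 and 36239, which overlapped (log2 fold change 0.33, SE 0.17, limma adjusted p = 0.199), and the interaction was not called (log2 -0.55, SE 0.24, limma adjusted p = 0.148). Fibronectin (Fn1), which binds collagens and integrins, was called higher at 7 days and not at 24 h. It had 61660, 60352 and 56663 against 61568, 56426 and 60755 at 24 h, and 85712, 52953 and 60856 against 46034, 34857 and 44931 at 7 days. At 24 h the groups overlapped and at 7 days they did not, and the log2 fold change at 7 days was 0.65 (SE 0.18, limma adjusted p = 0.0144). That call was lost without stroke library 1 (adjusted p = 0.103), the highest, or sham library 2 (adjusted p = 0.0866), the lowest, and the interaction was not called (log2 0.65, SE 0.25, limma adjusted p = 0.101). Its sham mean was 59583 normalized counts at 24 h and 41941 at 7 days (log2 difference -0.52, SE 0.18, limma adjusted p = 0.178), whereas the stroke mean was 59558 and 66507 (0.13, SE 0.18, limma adjusted p = 0.646). Dag1, the laminin receptor dystroglycan, had log2 fold changes of -0.21 and 0.03 (SE 0.14 each) and was called at neither time.

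**Figure D3:**
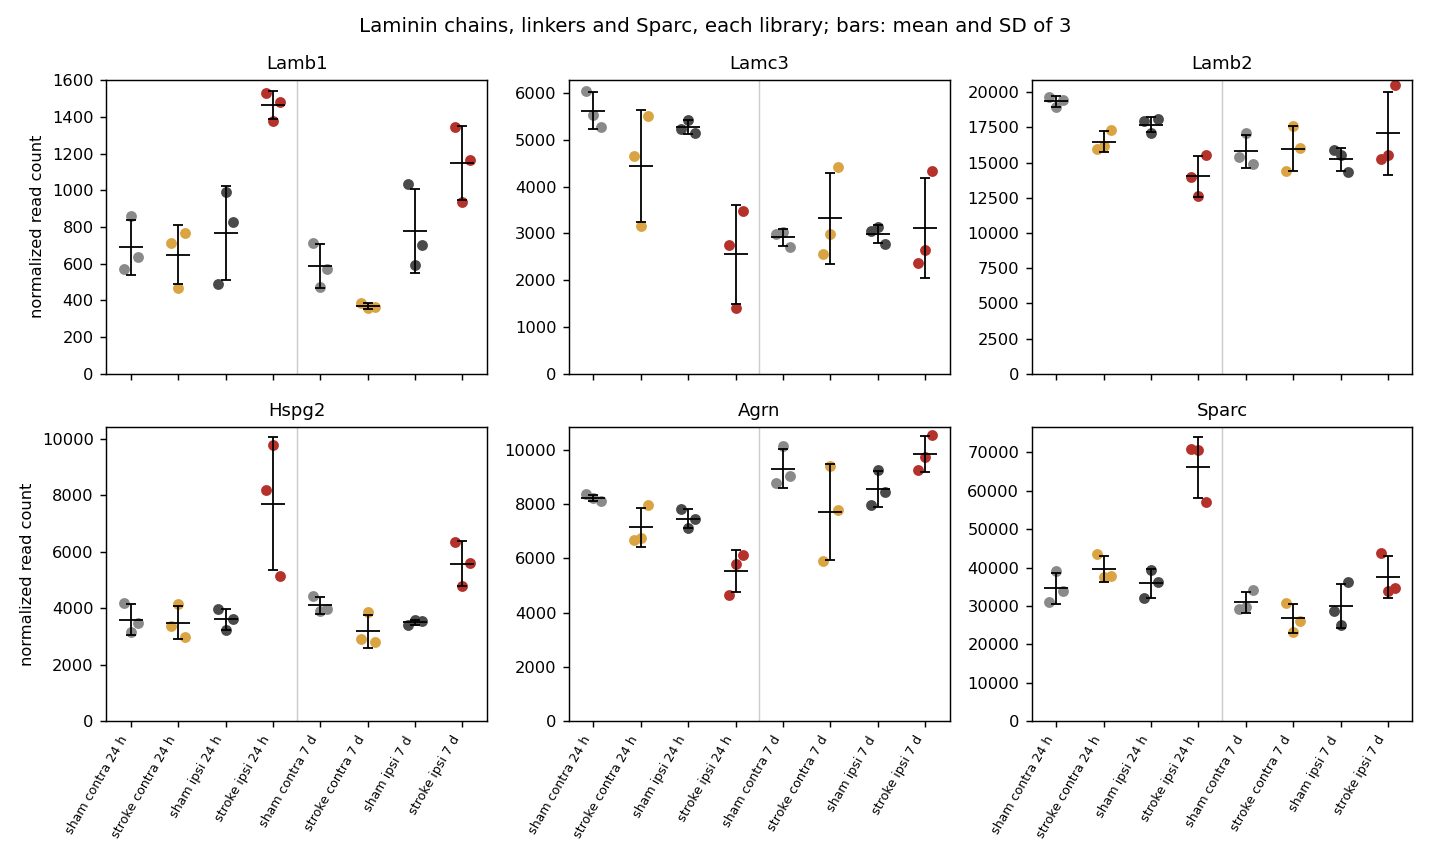
Normalized read counts (y axis) of Lamb1, Lamc3, Lamb2, Hspg2, Agrn and Sparc in each library (points) of the 8 groups (x axis), with bars for the mean and SD of 3 libraries. Hspg2 lay above the sham ipsilateral libraries at both times after stroke, whereas the stroke libraries of Agrn reached 4662 to 6141 at 24 h and 9264 to 10551 at 7 days.

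Summed over the 22 basement membrane genes, the ipsilateral stroke libraries had 192929, 200257 and 149239 normalized counts at 24 h and the sham libraries 117871, 118721 and 130053, without overlap. In the stroke libraries most of this sum was Col4a1 and Col4a2. The 6 type IV collagens alone summed to 85491 to 137599 after stroke and 54745 to 65835 after sham. The 10 laminins went the other way, with 32016 to 39152 against 42380 to 42726, also without overlap. The higher sum was thus not a rise of the whole class. The 9 fibrillar collagens together had 7309, 5935 and 10500 after stroke and 5865, 10231 and 8950 after sham, with full overlap. The ratio of the basement membrane to the fibrillar sum was 26.4, 33.7 and 14.2 after stroke and 20.1, 11.6 and 14.5 after sham. Stroke library 3 thus fell among the sham libraries. At 7 days the basement membrane sums were 135326, 101904 and 119884 against 107416, 86856 and 118416, and the fibrillar sums 5306, 5956 and 6548 against 10273, 7094 and 6100, with overlap in both. The corresponding ratios, 25.5, 17.1 and 18.3 against 10.5, 12.2 and 19.4, overlapped as well.

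**Figure D4:**
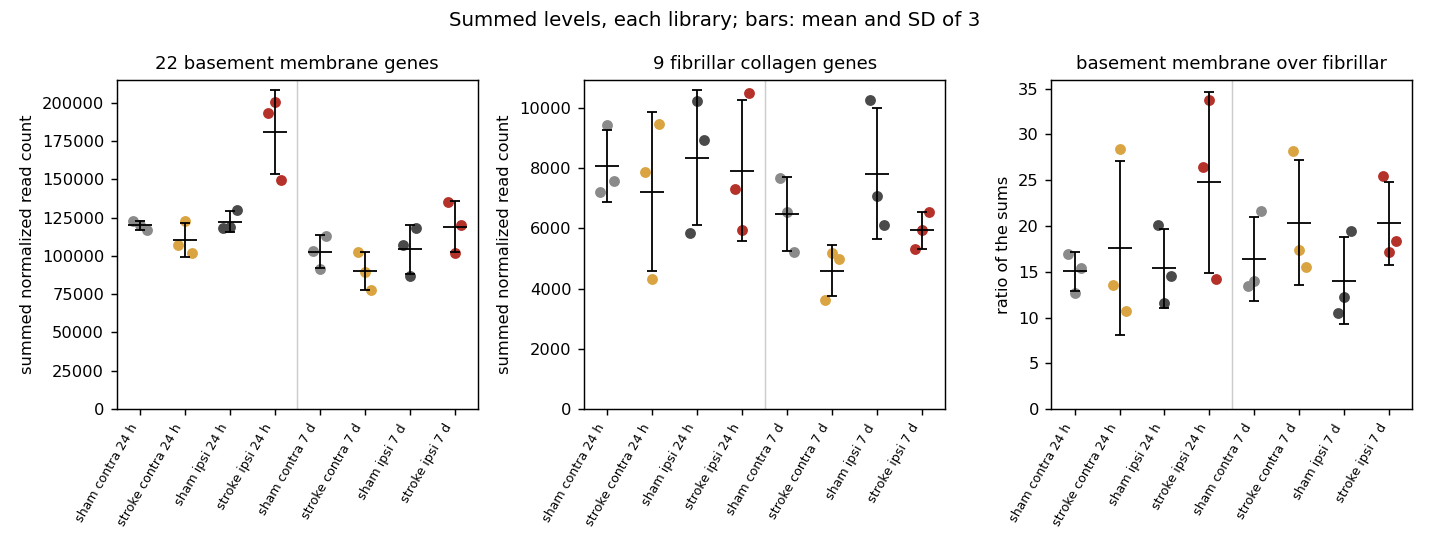
Summed normalized read counts of the 22 basement membrane genes and of the 9 fibrillar collagen genes, and the ratio of both sums (y axes), in each library (points) of the 8 groups (x axes), with bars for the mean and SD of 3 libraries. The basement membrane sum of the ipsilateral stroke libraries at 24 h, 149239 to 200257, lay above that of the other 21 libraries, and the ratio overlapped between groups.

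Among the fibrillar collagens the main interstitial chains did not pass the test. At 24 h Col1a1 had 1583, 965 and 2010 normalized counts after stroke and 1023, 1900 and 1868 after sham (log2 fold change -0.08, SE 0.33, limma adjusted p = 0.872). Col1a2 had 3050, 1818 and 4363 against 2818, 5299 and 4240 (-0.46, SE 0.30, limma adjusted p = 0.250), and Col3a1 had 961, 1486 and 1615 against 599, 1159 and 1252 (0.47, SE 0.31, limma adjusted p = 0.265). All 3 overlapped between groups, and at 7 days their log2 fold changes were -0.50 (SE 0.33), -0.60 (SE 0.30) and -0.28 (SE 0.31), with limma adjusted p of 0.342, 0.189 and 0.618. At 7 days 6 of 9 fibroblast markers were called lower, with sums of 5305 to 5566 normalized counts after stroke and 9474 to 16104 after sham, and their part in these values was not tested.

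Col5a3, a minor fibrillar chain, was the exception and was higher at both times. It had 215, 327 and 182 normalized counts against 79, 129 and 136 at 24 h and 227, 166 and 233 against 139, 68 and 131 at 7 days, with no overlap at either time. Its log2 fold changes were 1.06 (SE 0.31, limma adjusted p = 0.0139) and 0.93 (SE 0.31, limma adjusted p = 0.0414). The call at 24 h was lost without sham library 1 (adjusted p = 0.0877) or stroke library 2 (adjusted p = 0.0848), and that at 7 days without sham library 2 (adjusted p = 0.227), stroke library 1 (adjusted p = 0.129) or stroke library 3 (adjusted p = 0.120). Col11a2 was lower at 24 h, with 25, 25 and 27 against 75, 48 and 76 (log2 fold change -1.31, SE 0.43, limma adjusted p = 0.0275), a call lost in 4 of the 6 fits without 1 library, with adjusted p up to 0.0906.

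Of the 7 FACIT collagens 2 were called lower at 24 h, 3 at 7 days and none higher at either time. Col12a1 had 758, 388 and 930 normalized counts against 754, 1166 and 1505 at 24 h (log2 fold change -0.76, SE 0.28, limma adjusted p = 0.0446) and 327, 346 and 352 against 1316, 658 and 786 at 7 days (-1.36, SE 0.28, limma adjusted p = 0.00170). The groups overlapped at 24 h, where the call was lost in 4 of 6 fits without 1 library (adjusted p up to 0.294), and were well apart at 7 days, where it was kept in all 6. Col22a1 followed the same course, with 52, 29 and 76 against 75, 122 and 108 and then 26, 32 and 43 against 122, 84 and 69. Its log2 fold changes were -1.02 (SE 0.33, limma adjusted p = 0.0261), lost in 4 of 6 such fits with adjusted p up to 0.166, and -1.41 (SE 0.33, limma adjusted p = 0.00547), kept in all 6. Col9a2, at 23, 9 and 26 against 77, 43 and 47, was called at 7 days (-1.56, SE 0.37, limma adjusted p = 0.00585).

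Col14a1, another FACIT collagen, was called between the time points in sham as well as stroke vessels. In sham vessels it stood at 238, 125 and 257 normalized counts in the ipsilateral and 373, 225 and 344 in the contralateral hemisphere at 24 h, and at 1234, 1294 and 1091 and 1645, 1829 and 1192 at 7 days. After stroke it stood at 65, 119 and 161 ipsilaterally at 24 h and at 356, 841 and 541 at 7 days. No library at 24 h reached the level of any sham library at 7 days. The rise from 24 h to 7 days was 2.60 on the log2 scale in sham ipsilateral (SE 0.40, limma adjusted p = 0.00388), 2.32 in sham contralateral (SE 0.40, limma adjusted p = 0.0140) and 2.33 in stroke ipsilateral vessels (SE 0.40, limma adjusted p = 5.6e-04). Against sham, its log2 fold change was -0.87 at 24 h (SE 0.40, limma adjusted p = 0.107) and -1.14 at 7 days (SE 0.40, limma adjusted p = 0.0568). The difference in this rise between stroke and sham was not called (interaction -0.27, SE 0.57, limma adjusted p = 0.806). Time point and any difference in handling between the days cannot be told apart in this design.

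Network and beaded collagens had 1 member called lower at each time. Col28a1, a beaded collagen, had 35, 17 and 35 normalized counts after stroke and 67, 80 and 64 after sham at 24 h, and 89, 96 and 139 against 94, 112 and 109 at 7 days. The log2 fold change at 24 h was -1.31 (SE 0.27, limma adjusted p = 0.00123, called in all 6 fits without 1 library) and 0.02 at 7 days (SE 0.27, limma adjusted p = 0.976). The difference between the times was called (interaction 1.33, SE 0.38, limma adjusted p = 0.0308) in 6 of 12 fits with 1 library less, and the adjusted p reached 0.0848 without stroke library 2 at 24 h. Col8a2 had 8, 27 and 35 against 136, 99 and 70 at 7 days (log2 fold change -2.25, SE 0.77, limma adjusted p = 0.0493), a call lost without any of 5 of the 6 libraries, with adjusted p up to 0.232. At 24 h sham library 2 had the highest Col8a2 (320) and Col9a3 (309) of all libraries and also the highest sum of the 9 choroid plexus markers (76132 normalized counts, against 1298 to 4049 in the stroke ipsilateral libraries at 7 days). At 7 days 5 of the 9 choroid plexus markers were called lower, with sums of 16485 to 30015 after sham, and their part in the values of both genes was not tested. Col8a1 had 1314, 728 and 1596 after stroke at 24 h and 387, 547 and 684 at 7 days, a fall by 1.13 on the log2 scale (SE 0.37, limma adjusted p = 0.0383) that was lost in 4 of 6 fits without 1 library, with adjusted p up to 0.137. The type VI chains Col6a1, Col6a2, Col6a3 and Col6a6 had log2 fold changes of 0.05 to 0.18 at 24 h and of -0.73 to 0.07 at 7 days, none called.

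Of the transmembrane collagens, Col13a1, Col23a1 and Col25a1 were lower at 24 h and Col25a1 at 7 days also. Col25a1, a collagen known from neurons, had 12, 20 and 21 normalized counts against 47, 35 and 44 at 24 h and 3, 4 and 3 against 20, 28 and 42 at 7 days. Its log2 fold changes were -1.23 (SE 0.38, limma adjusted p = 0.0209) and -2.78 (SE 0.38, limma adjusted p = 4.6e-05). The call at 24 h was lost without sham library 1 (adjusted p = 0.0729) or 3 (adjusted p = 0.0564) or stroke library 1, and that at 7 days in none of 6 such fits. At 7 days 8 of the 9 neuronal markers were called lower too, with sums of 2181 to 2691 normalized counts after stroke and 5150 to 7480 after sham. Contralateral stroke library 1 at 7 days had the highest Col25a1 (82) and the highest neuronal marker sum (14277) of all libraries. The part of neuronal RNA in the Col25a1 values was not tested. Col13a1 had 232, 182 and 347 against 357, 488 and 496 at 24 h (-0.85, SE 0.28, limma adjusted p = 0.0268), lost in 4 of 6 such fits with adjusted p up to 0.137.

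**Figure D5:**
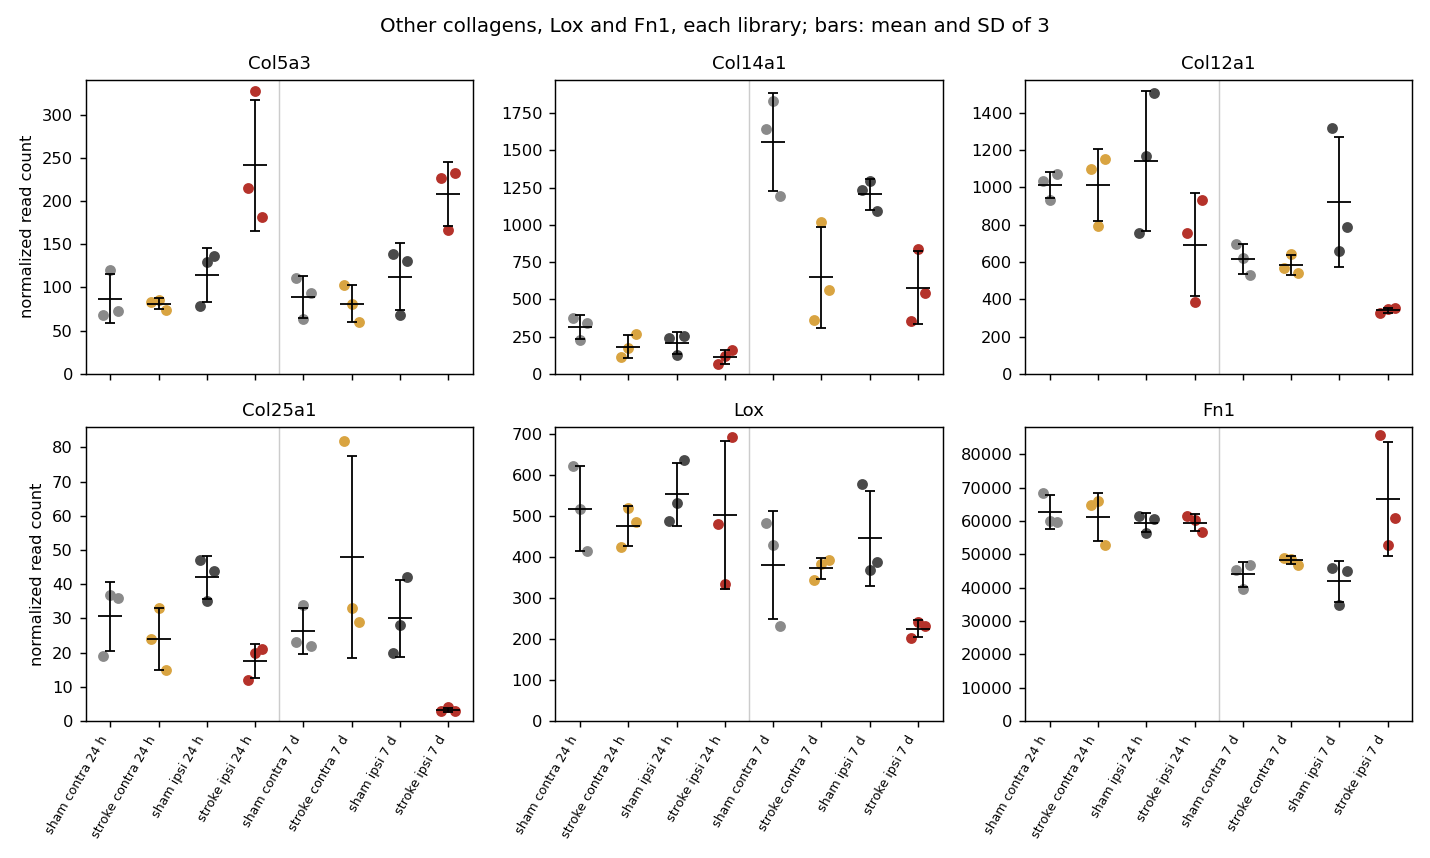
Normalized read counts (y axis) of Col5a3, Col14a1, Col12a1, Col25a1, Lox and Fn1 in each library (points) of the 8 groups (x axis), with bars for the mean and SD of 3 libraries. Col14a1 was higher at 7 days than at 24 h in sham and stroke vessels alike, and Col25a1 stood at 3 to 4 in the stroke ipsilateral libraries at 7 days.

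Lysyl oxidases cross-link collagen and elastin. None of the 5 was called at 24 h in limma, and none had an unadjusted p under 0.05, against 42.1% of all genes. At 7 days Lox had 202, 242 and 232 normalized counts against 579, 369 and 389, without overlap, and a log2 fold change of -0.95 (SE 0.25, limma adjusted p = 0.0118), a call lost without sham library 1 (adjusted p = 0.0729) or stroke library 1 (adjusted p = 0.0556). At 24 h its groups overlapped, with 482, 335 and 693 against 489, 532 and 638. From 24 h to 7 days after stroke Lox fell by 1.10 (SE 0.25, adjusted p = 0.00496 in limma) and Loxl2 by 1.44 (SE 0.37, adjusted p = 0.0102), and both calls were kept in all 6 fits without 1 library. Loxl2 had 381, 449 and 355 normalized counts at 24 h and 194, 129 and 119 at 7 days after stroke. Loxl1, Loxl3 and Loxl4 had log2 fold changes of 0.00 to 0.41 at 24 h and 0.05 to 0.40 at 7 days.

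At 7 days fewer matrix genes differed between stroke and sham. Col5a3, Hspg2 and Fn1 were called higher (3 of 59, against 3.27% of all genes) and Col12a1, Col22a1, Col25a1, Col8a2, Col9a2 and Lox lower (6 of 59, against 9.95%), shares close to the background. Without stroke library 1 none was called higher, and 6 were with the correction for length and GC content. Of the 22 basement membrane genes 1 was called, and the median log2 fold change was 0.08 over them, -0.28 over the fibrillar collagens and 0.02 over all genes. Among the cell type lists, 7 of 7 tested proliferation markers were called higher at 7 days (median log2 fold change 2.21, sums of 372 to 460 normalized counts against 77 to 84) and 4 of 9 astrocyte markers lower (7254 to 9568 against 15844 to 31468). Of 8 pericyte markers 1 was called lower. This was Vtn, a gene counted below among other matrix genes as well, with means of 16503 normalized counts after stroke and 33379 after sham. The pericyte sums, which include Vtn, were 73446 to 76379 after stroke and 104687 to 131104 after sham. The part of these 3 lists in the matrix values was not tested. The comparisons at 24 h and 7 days share no library. Of the 59 genes, 2 were called higher at both times (Col5a3, Hspg2), 3 lower at both (Col12a1, Col22a1, Col25a1), none in opposite directions, 16 at 24 h alone and 4 at 7 days alone, and 34 were called at neither.

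A call at 1 time and not at the other does not show a difference between them, so the stroke effects were compared directly. The interaction called Agrn, Col28a1 and Col4a4 (3 of 59, against 2.43% of all genes), each with a less negative or more positive effect at 7 days. It called no member in the other direction, against 5.68% of all genes, and 15 of the 59 (25.4%) had an unadjusted p under 0.05 in limma in either direction, close to the 26.0% of all genes. For Col4a4 the interaction was 1.41 (SE 0.40, limma adjusted p = 0.0286), called in 5 of 12 fits without 1 library and with an adjusted p of up to 0.0713. Its stroke libraries at 7 days had 49, 33 and 41 normalized counts and the sham libraries 33, 34 and 37, so the groups overlapped. For Col4a1 and Col4a2 the interaction was -0.75 (SE 0.44, limma adjusted p = 0.286) and -0.72 (SE 0.43, limma adjusted p = 0.295). Col4a3bp was called as well (0.87, SE 0.22, limma adjusted p = 0.0168).

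Within the stroke hemisphere, 4 matrix genes rose from 24 h to 7 days (3.72% of all genes did) and 10 fell (8.44%). The rising genes were Agrn, Col14a1, Col28a1 and Lama3. The falling genes were Col4a1, Col4a2, Col18a1, Nid1, Sparc, Col12a1, Col25a1, Col8a1, Lox and Loxl2. Lama3, at 534, 515 and 610 and then 830, 1112 and 1134 normalized counts, rose by 0.88 on the log2 scale (SE 0.20, limma adjusted p = 0.00418). Col28a1 rose by 1.90 (SE 0.27, limma adjusted p = 1.1e-04). In the 6 fits with 1 library less, each rising gene was called every time, and so were 5 of the falling genes (Col25a1, Lox, Loxl2, Nid1 and Sparc). These comparisons share the stroke libraries with those against sham. Over the same days in sham ipsilateral vessels, 43 of the 59 members had a negative log2 difference and 16 a positive one. Their median was -0.21, against -0.001 over all genes, and Col14a1 alone was called. All 6 type IV collagens and all 5 lysyl oxidases were negative there. A change between the days after stroke can therefore include one shared with sham.

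Against the contralateral hemisphere of the stroke mice, which shares the ipsilateral stroke libraries with the comparisons above, 10 members were higher at 24 h (8.51% of all genes were) and 4 lower (5.14%). The higher ones were Col4a1, Col4a2, Col18a1, Lamb1, Hspg2, Sparc, Col5a3, Nid1, Loxl2 and Col8a1, and the lower ones Col4a5, Col4a6, Lamc3 and Col28a1. Contralateral stroke libraries had 28073, 38147 and 22341 normalized counts of Col4a1 and 817, 550 and 1031 of Col4a5, so that for Col4a5 they overlapped the ipsilateral libraries. The log2 difference was 1.21 for Col4a1 (SE 0.31, limma adjusted p = 0.00727), 1.19 for Col18a1 (SE 0.14, limma adjusted p = 1.1e-05) and -0.86 for Col4a5 (SE 0.30, limma adjusted p = 0.0439). Among the higher calls, those of Loxl2 and Col8a1 were lost in 5 of 6 fits without 1 library (adjusted p up to 0.132 and 0.189), that of Nid1 in 2, through its size, and that of Col4a2 without contralateral library 3 (adjusted p = 0.0564). The 4 lower calls were all lost without contralateral library 1 or 3 or ipsilateral library 2. At 7 days Lamb1 (log2 difference 1.62, SE 0.25, limma adjusted p = 7.5e-05), Col5a3, Hspg2 and Col7a1 were higher (3.03% of all genes) and Col25a1 and Col9a2 lower (9.98%), and with the correction for length and GC content 18 members were higher. Contralateral Lamb1 stood at 385, 358 and 366 normalized counts at 7 days, below the 1342, 937 and 1166 on the stroke side and below all 3 sham contralateral libraries (712, 474 and 573).

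Genes that act on or beside these members were taken from 3 lists. Of 25 genes of collagen synthesis and processing, 9 were called higher at 24 h (10.0% of all genes were) and none lower (8.23%), with a median log2 fold change of 0.30. The 3 with the largest change were Tll1 (2.03, SE 0.39), a procollagen protease, Serpinh1 (1.02, SE 0.14), the collagen chaperone HSP47, and Fkbp10 (1.02, SE 0.14), a prolyl isomerase, with limma adjusted p of 7.6e-04, 2.3e-05 and 4.0e-05. At 7 days Tll1, Bmp1 (0.95, SE 0.12, limma adjusted p = 1.8e-05) and Fkbp10 were called higher (3 of 25, against 3.27% of all genes), and the interaction was called for Serpinh1 (-0.95, SE 0.19, limma adjusted p = 0.00414).

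Of 24 other basement membrane and matrix genes, 2 were called higher at 24 h, Tnc (tenascin C, log2 fold change 6.00, SE 0.46, limma adjusted p = 7.5e-08) and Hmcn2 (1.24, SE 0.37, limma adjusted p = 0.0167), and 5 lower, led by Hmcn1 (-1.25), Spock2 (-1.24) and Fbln1 (-0.83). The share of higher genes was near the 10.0% of all genes and that of lower genes above the 8.23%. At 7 days 2 were called higher (Papln 1.54, Pxdn 0.70), against 3.27% of all genes. Lower were 5, led by Fras1 (-1.95), Efemp1 (-1.02) and Vtn (-1.003), against 9.95% of all genes. Papln and Fras1 were scarce, with means of 15.7 and 11.7 normalized counts after stroke and 5 and 42.3 after sham. The interaction was called for Tnc (-5.81, SE 0.66, limma adjusted p = 3.7e-05) and Hmcn1 (1.15, SE 0.26, limma adjusted p = 0.00844).

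Of 25 matrix receptors, Itga2 (2.54, SE 0.46), Itga5 (1.49, SE 0.15) and Itgb3 (1.20, SE 0.20) were called higher at 24 h and Itgb8 (-1.01, SE 0.31) and Sdc2 (-0.60, SE 0.21) lower, shares near those of all genes (10.0% and 8.23%). Itga2 encodes a collagen-binding and Itga5 a fibronectin-binding integrin chain. Itga2 was scarce at 24 h, with means of 27.3 normalized counts after stroke and 4 after sham, whereas Itga5 had 3814 and 1346. At 7 days Itga5 (0.77) and Itgb3 (0.66) were called higher (3.27% of all genes were) and Itgb8 (-1.12) lower (9.95%). The interaction was called for Itga5 (-0.72, SE 0.21, limma adjusted p = 0.0360) and Sdc1 (-0.64, SE 0.19, limma adjusted p = 0.0380).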

How the data were processed

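The values used here come from 24 libraries of brain microvessel RNA in 8 groups of 3, each pooled from 3 hemispheres. They were TruSeq stranded mRNA libraries, and samples set aside as outliers are not among them. Groups and replicate numbers were taken from the labels. The submitters' processing notes name STAR 2.5.2b, featureCounts 1.5.1 and DESeq2 1.6.2, and the genome was mm10. The deposited values are a score: the authors scaled the reads by a size factor for each library, estimated with DESeq2, and deposited whole numbers, so that the reads behind a value are not known exactly and no count test was run. Totals of 15924780 to 18787932 normalized counts per library (median 16953257) set the precision, and genes with few counts are the least precise. Whether reads were counted by strand is not given in the sources used here.

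The log2 of each value plus 1 was modelled with limma 3.58.1 in R 4.3.3 (eBayes with trend) for the 15982 genes whose mean exceeded 5, and the 8 groups shared 1 model. The tests were 2-sided, with Benjamini-Hochberg adjustment over these genes, and a call required an adjusted p under 0.05 and a change of more than 1.5-fold. A log2 fold change after adding 1 understates the change of low genes. Levels per kb were divided by the exon length of GENCODE vM21, which was found for 60 of the 60 members. Python 3.11.15, pandas 2.3.3 and matplotlib 3.10.9 were used for sums and figures.

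The members, roles and lists were chosen with earlier results of these data known. Full statistics were given for a fixed core of members and for called members with the largest change in their role (at most 2 in each direction per role and comparison). The values of 1 member are not reported here. Beside these, Col4a3 and Col4a5 were chosen after their values were seen. Genes of the other lists were named when called, at most 3 in each direction per list and comparison. Same-numbered libraries of stroke and sham, or of both stroke hemispheres, did not all deviate together, so their numbers were not used as pairs. Those of both sham hemispheres did (correlations of 0.145 to 0.410 at 24 h and 0.325 to 0.467 at 7 days), so that comparison was also fitted with the number as a block, a choice made after the data were seen. Whether same-numbered hemispheres came from the same mice is not given in the sources used here. Alternatives were a pseudocount of 0.5, a minimum mean of 20 or none, centring on the median, a fit to the compared groups alone, no limit on size, a replicate block, a length and GC correction, and the omission of each library in turn.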

Additional observations from a re-analysis of the deposited data

Results flagged for a closer look

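In 4 genes the effect of stroke in the ipsilateral hemisphere differed between 7 days and 24 h by a test of the difference itself (limma interaction with Benjamini-Hochberg adjustment), and in each the effect was more positive at 7 days. The difference on the log2 scale was 0.64 for Agrn (adjusted p = 0.0390), 1.33 for Col28a1 (adjusted p = 0.0308) and 1.41 for Col4a4 (adjusted p = 0.0286), and 0.87 for Col4a3bp (adjusted p = 0.0168), which is no matrix gene. The first 3 calls were made in 4, 6 and 5 of 12 fits with 1 library less.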

How the results depend on the processing

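Among the 38 members followed through the alternatives, no called change reversed its direction. Filters on the mean, no fold limit, a fit to the compared groups alone and a replicate block cannot alter a log2 fold change here. Only the pseudocount, median centring, the length and GC correction and the omission of a library could have reversed a direction. Some values near 0 that were not called changed sign with 1 library less. At 24 h against sham these included Col1a1 (-0.37 to 0.21) and Fn1 (-0.04 to 0.04). A pseudocount of 0.5, no filter, a minimum mean of 20, no limit on the fold change and the replicate number as a replicate block left all 12 counts of called members within 1.5 times of those reported. With the correction for length and GC content, 8 members instead of 14 were lower at 24 h against sham and 6 instead of 3 higher at 7 days, and between the stroke hemispheres at 7 days 18 instead of 4 were higher and 1 instead of 2 lower. Under it Col12a1, Col22a1, Col25a1, Col4a3, Lama2 and Lama3 lost their call at 24 h, Nid1 gained one, and the interaction of Agrn was lost (adjusted p = 0.0790). Median centring gave 7 higher members between the stroke hemispheres at 7 days. With only the compared groups in the fit, 1 member was higher at 7 days against sham and 0 lower between the stroke hemispheres at 24 h. With the replicate number within surgery and time as a replicate block, the stroke hemispheres gave 10 lower members at 24 h and 11 higher and 5 lower at 7 days, and the sham hemispheres 0 at both times. Same-numbered libraries of both stroke hemispheres correlated in their deviations by 0.066, 0.360 and 0.327 at 24 h and 0.059, 0.309 and 0.064 at 7 days. The causes were not tested.

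When each library was left out in turn, the members called against sham numbered 3 to 8 higher and 5 to 15 lower at 24 h and 0 to 3 higher and 4 to 6 lower at 7 days. The fewest lower members at 24 h (5) were found without stroke library 2, and the fewest higher members at 7 days (0) without stroke library 1. Between 7 days and 24 h after stroke they numbered 4 to 5 higher and 6 to 9 lower, in the interaction 0 to 4 higher and 0 to 1 lower, between the stroke hemispheres 7 to 9 higher and 0 to 8 lower at 24 h and 3 to 6 higher and 1 to 2 lower at 7 days. These fits had fewer samples. Of the genes called against sham, 3 of 7 higher and 4 of 14 lower at 24 h, and 0 of 3 higher and 4 of 6 lower at 7 days, were called in each of the 6 fits. With 3 pooled libraries a group, the SE of the log2 fold change against sham at 24 h was 0.10 (Lamc1) to 0.77 (Col8a2) over the members, with a median of 0.30.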
